A study of Mus musculus with 6 samples.

Results

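10 genes were followed that encode core proteins of the extracellular matrix proteoglycans: decorin (*Dcn*), biglycan (*Bgn*), asporin (*Aspn*), lumican (*Lum*), fibromodulin (*Fmod*), prolargin (*Prelp*), osteoglycin (*Ogn*), podocan (*Podn*), versican (*Vcan*) and aggrecan (*Acan*). They were chosen by name, as 8 small leucine-rich proteoglycans (SLRPs) and 2 large chondroitin sulfate proteoglycans, by a rule that names them and uses no measured value, and the group was picked with earlier results of these data known. All 10 were listed among the 17441 genes with an FPKM (fragments relative to transcript length and library size) in at least 1 library. Of these genes, 13120 reached an FPKM of 1 in at least 2 libraries and were tested, among them 9 of the 10, all but *Acan*.

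A proteoglycan is a protein that carries long sulfated sugar chains. SLRPs have short core proteins built of leucine-rich repeats; they bind collagen and set the width and spacing of its fibrils, and several of them hold growth factors of the transforming growth factor β (TGF-β) family or engage receptors on cells. Versican and aggrecan have large core proteins with many chondroitin sulfate chains, bind hyaluronan and swell the matrix with water, versican in provisional matrices and aggrecan chiefly in cartilage. In the heart such core proteins come mostly from fibroblasts and other mesenchymal cells, and the matrix they form is rebuilt as an infarct heals.

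RNA came from heart tissue below the ligature, 3 days post-MI or after sham surgery, of male mice in 3 groups on a C57BL/6 background: wild-type mice with a sham operation (WT Sham), wild-type mice with myocardial infarction by ligation of the left anterior descending artery (WT MI), and mice with a whole-body knockout of *Card9* and the same infarction (*Card9* KO MI). Their age was 12 weeks in the labels and 10 to 14 weeks in the methods, and the wild-type mice were littermates or C57BL/6 mice. Each group had 2 libraries; nothing in the sources says whether these were separate mice or pools, so the p-values measure the spread between these libraries, which may be technical. *Card9* KO mice with a sham operation were not analysed here, and a difference of *Card9* KO MI from WT Sham therefore cannot be assigned to genotype or infarction.

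*Card9*, an adaptor protein of myeloid immune signaling, stood at 0.99 and 1.03 FPKM in WT Sham, 3.39 and 5.08 for WT MI, and 9.85 and 6.94 in the pair labelled *Card9* KO MI. It was thus not lower where the label says knockout (log2 fold change against WT MI 0.85, SE 0.23, adjusted p = 0.112), and a value for a whole gene does not show whether a deleted part was read. The group is named below by its label, and each direction against it rests on that label. The estimated depth was 3010000 to 4285000 fragments per library, lowest in the WT Sham pair, and 3 fragments on a transcript of 2 kb were worth an FPKM of 0.350 to 0.498. The 7 cardiomyocyte markers summed to an FPKM of 16857 to 37931 in every library, none of them at 0, so heart muscle was present in all. In bulk tissue fewer cells of a type and less RNA per cell cannot be told apart.

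Decorin and biglycan made up most of the core protein mRNA, and their order turned over with infarction. By mean FPKM, which is per length and can be set side by side between genes, WT Sham ran from *Dcn* through *Bgn*, *Ogn*, *Prelp*, *Lum*, *Aspn*, *Podn*, *Vcan* and *Fmod* to *Acan*, and no neighbours in that order overlapped between their libraries. In WT MI the order was *Bgn*, *Dcn*, *Lum*, *Ogn*, *Aspn*, *Prelp*, *Vcan*, *Podn*, *Fmod* and *Acan*, with overlapping libraries between *Lum* and *Ogn* and between *Aspn* and *Prelp*. In the pair labelled *Card9* KO MI it was *Bgn*, *Dcn*, *Ogn*, *Aspn*, *Lum*, *Prelp*, *Vcan*, *Podn*, *Fmod* and *Acan*, and only *Ogn* and *Aspn* overlapped among neighbours.

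**Figure D1:**
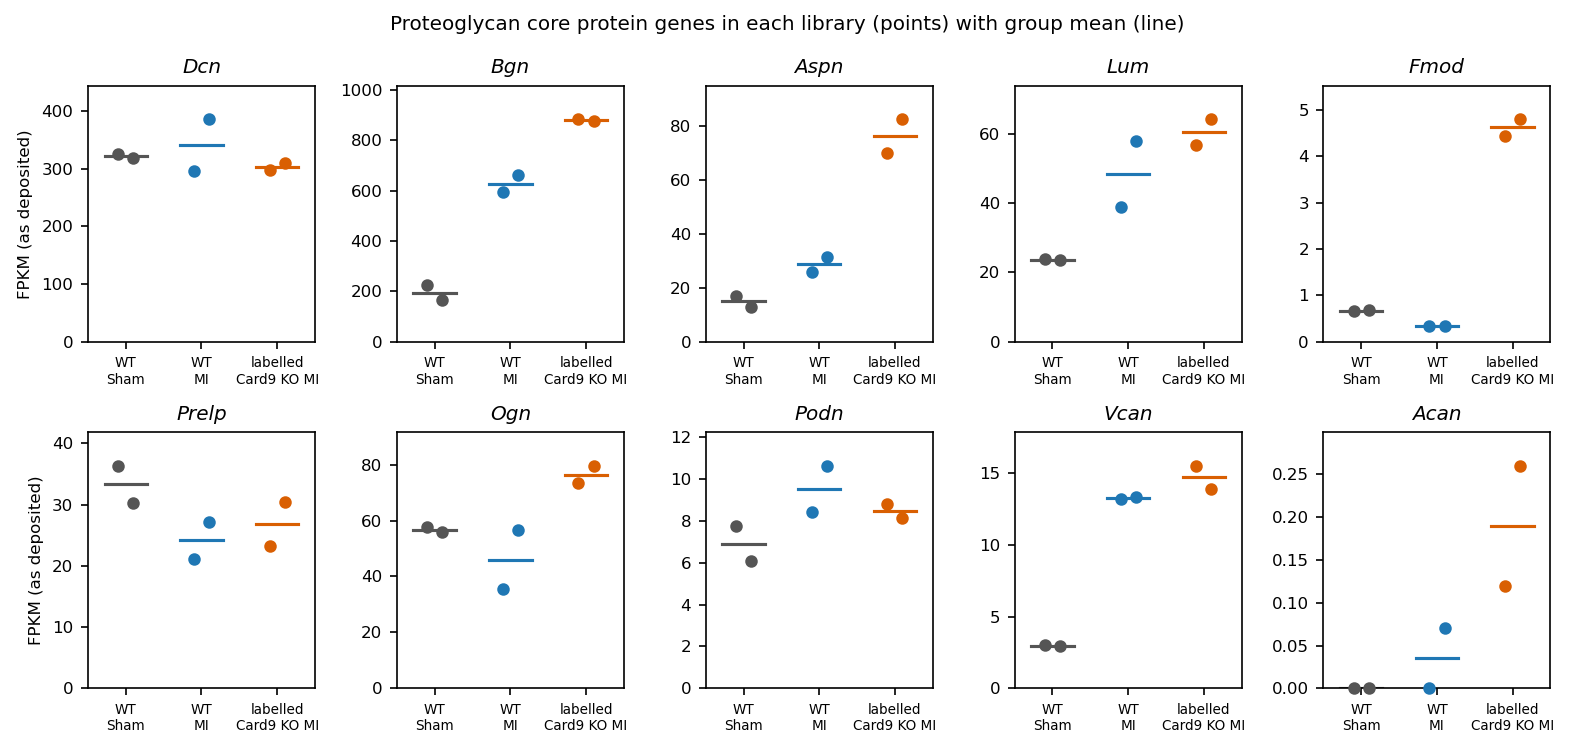
FPKM of each of the 10 genes in the 6 libraries (points, 2 per group) with the group mean (line), each panel on its own linear axis from 0. *Bgn* is lowest in WT Sham and highest in the pair labelled *Card9* KO MI, a step that did not pass the test against WT MI, *Vcan* separates WT Sham from both infarcted groups, and *Fmod* and *Aspn* stand highest in the pair labelled *Card9* KO MI, while *Dcn* stays between 296.75 and 385.71.

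The summed FPKM of the 10 genes was 695.48 and 616.89 for WT Sham, 1034 and 1244 for WT MI, and 1432 and 1468 in the pair labelled *Card9* KO MI. The 3 groups did not overlap. Decorin supplied 46.8% and 51.6% of that sum in WT Sham, 28.7% and 31.0% for WT MI, and 20.8% and 21.1% in the pair labelled *Card9* KO MI. Biglycan supplied 32.2% and 27.0%, then 57.5% and 53.1%, then 61.6% and 59.6%. Put as a ratio within each library, *Bgn* stood at 0.688 and 0.524 times *Dcn* in WT Sham, at 2.00 and 1.71 times in WT MI, and at 2.97 and 2.83 times in the pair labelled *Card9* KO MI. The ratio, too, separated all 3 groups, but with 2 libraries against 2 an exact permutation test cannot give a p below 0.333, so no test of it was run. Of all single genes tested, 48.3% were higher without overlap in WT MI against WT Sham and 30.8% in *Card9* KO MI against WT MI. Between the infarcted groups neither *Bgn* (adjusted p = 0.123) nor *Dcn* (adjusted p = 0.537) passed the limma test.

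**Figure D2:**
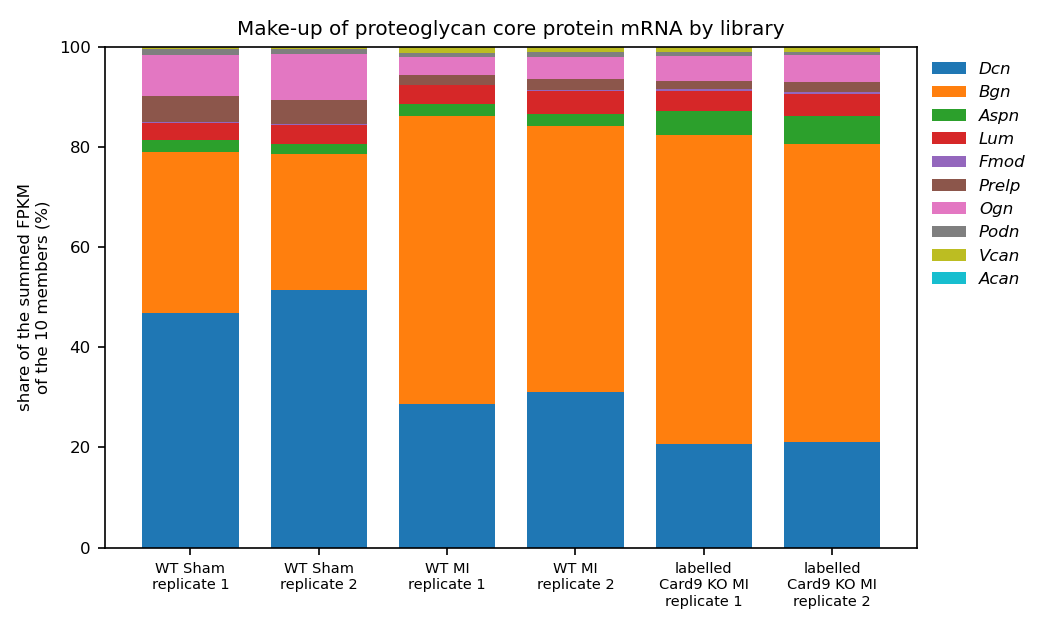
Share of the summed FPKM of the 10 genes that each gene supplied, in percent, one bar per library. The *Dcn* segment goes from 46.8% and 51.6% for WT Sham to 20.8% and 21.1% in the pair labelled *Card9* KO MI, and the *Bgn* segment from 32.2% and 27.0% to 61.6% and 59.6%.

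The first comparison asked what infarction did to these genes in wild-type hearts. Biglycan, versican, lumican and asporin rose, versican and biglycan the most, and no tested member was called lower on the deposited scale. Decorin had a log2 fold change of 0.07, and prolargin and osteoglycin had lower means that did not pass the test. Thus 4 of the 9 tested members were called higher, at an adjusted p below 0.05, and 0 were called lower by limma (5 higher and 1 lower at an unadjusted p below 0.05); of all genes tested 27.7% were called higher and 9.39% lower. That split of all genes, 3637 higher and 1232 lower, was 2288 and 2416 under quantile normalization, where 4 members were called higher and 1, *Prelp*, lower (log2 fold change -0.65, adjusted p = 0.0270). Without overlap between libraries, 5 of 9 members were higher and 2 lower, against 48.3% and 22.1% of all genes. The study's screen, a 2-fold change with a diverge probability of at least 0.8, gave 3 members higher and 0 lower, against 6.06% and 0.906% of the genes it covered.

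Versican, which fills the early wound matrix, stood at 3.03 and 2.94 FPKM in WT Sham and at 13.18 and 13.31 for WT MI. The groups lay far apart and the libraries within each nearly coincided, and *Vcan* was 4.44-fold higher by mean (log2 fold change of FPKM + 1 of 1.84, SE 0.13, adjusted p = 8.05e-05). Biglycan, an SLRP that also acts as a danger signal through Toll-like receptors, stood at 223.84 and 166.52 FPKM in WT Sham and at 594.37 and 660.45 for WT MI. Every infarcted library was above every sham library, with a 3.21-fold higher mean (log2 fold change 1.69, SE 0.14, adjusted p = 0.000143).

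Lumican, a keratan sulfate SLRP, stood at 23.92 and 23.52 FPKM in WT Sham and at 38.84 and 57.82 for WT MI. The WT MI libraries were unequal but both above the sham pair, and *Lum* was 2.04-fold higher (log2 fold change 0.97, SE 0.18, adjusted p = 0.00436). Asporin, a relative of decorin without a glycosaminoglycan chain that binds collagen and TGF-β, stood at 16.96 and 12.96 FPKM in WT Sham and at 25.79 and 31.57 for WT MI. The groups did not overlap, and *Aspn* was 1.92-fold higher (log2 fold change 0.90, SE 0.16, adjusted p = 0.00422).

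Decorin, which coats collagen fibrils and binds TGF-β, stood at 325.31 and 318.04 FPKM in WT Sham and at 296.75 and 385.71 for WT MI. The WT MI libraries fell on either side of the sham pair, and the log2 fold change was 0.07, with a 95% interval from -0.22 to 0.37 (adjusted p = 0.686); its sign turned under 3 other scalings, -0.15 to -0.03. Podocan, an SLRP of vessel walls, stood at 7.75 and 6.06 FPKM against 8.44 and 10.62. Its groups did not overlap, but the log2 fold change of 0.41 (SE 0.17) missed the threshold (adjusted p = 0.0948).

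Prolargin, an anchor between collagen and basement membranes, stood at 36.32 and 30.26 FPKM in WT Sham and at 21.12 and 27.18 for WT MI. Both WT MI libraries were lower, and the log2 fold change was -0.45 (SE 0.18, adjusted p = 0.0797); under the 3 other scalings it was -0.67 to -0.60 and passed the test (adjusted p = 0.0234 to 0.0347). Osteoglycin, a keratan sulfate SLRP also called mimecan, stood at 57.69 and 55.9 FPKM in WT Sham and at 35.5 and 56.56 for WT MI. One WT MI library matched the sham pair and the other was lower, with a log2 fold change of -0.33 (SE 0.19, adjusted p = 0.21). Its size hung on which infarcted library was kept. With only replicate 1 standing for WT MI the log2 fold change was -0.66, and with only replicate 2 it was -0.0057.

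Fibromodulin, which steers collagen fibril assembly and cross-linking, was near the lower end of detection, at an FPKM of 0.66 and 0.69 for WT Sham and at 0.34 and 0.35 for WT MI. Both WT MI values were below both sham values, but they stand for an estimated 4.3 fragments per library and those of WT Sham for 6.5, and the log2 fold change of -0.32 (SE 0.20) did not pass (adjusted p = 0.259). Aggrecan was listed at 0 in both WT Sham libraries and in WT MI replicate 1 and at 0.07 for WT MI replicate 2, an estimated 2.0 fragments, and was not tested. Over the 9 tested members the median log2 fold change was 0.41, against 0.19 over all genes tested. That median of all genes moved to -0.07 under quantile normalization, to -0.00 under upper-quartile scaling and to 0.06 when libraries were scaled without the 100 most abundant genes; relative to the deposited scale's 0.19, *Bgn* stood at 1.51, *Vcan* at 1.65, *Lum* at 0.78 and *Aspn* at 0.71.

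**Figure D3:**
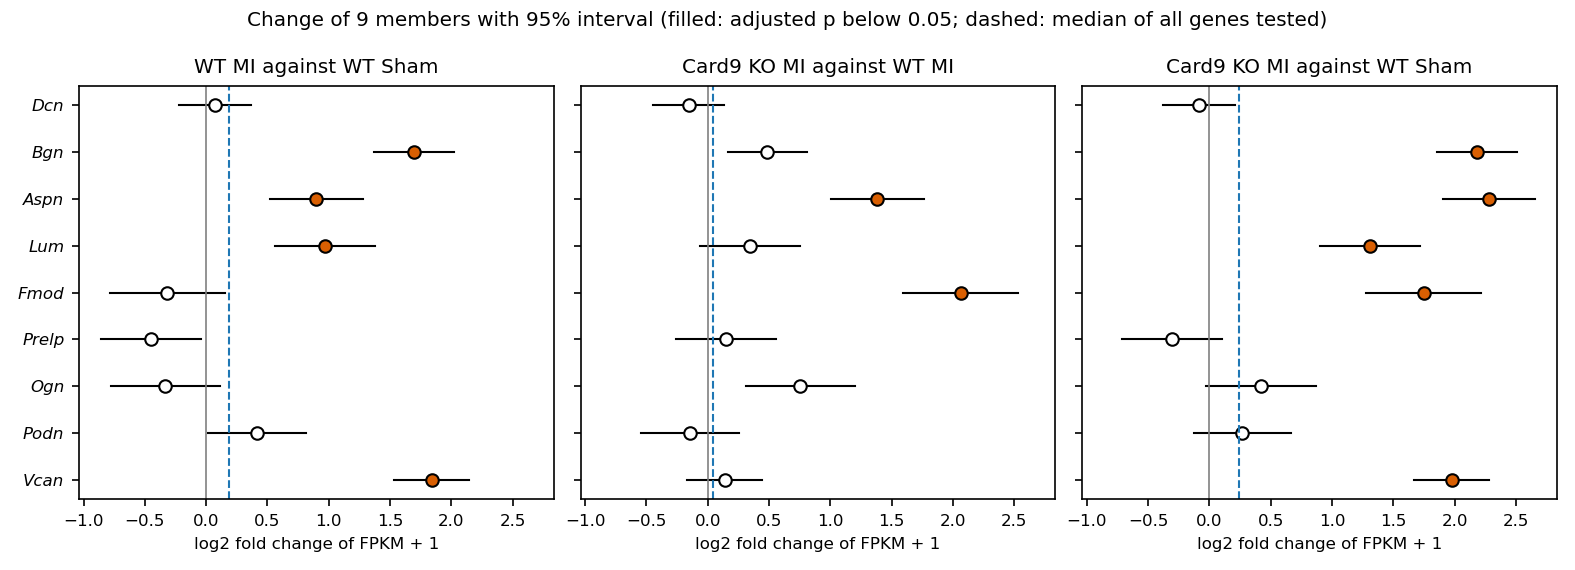
log2 fold change of FPKM + 1 (point) with its 95% interval (line) for the 9 tested genes in the 3 comparisons; filled points passed an adjusted p of 0.05, and the dashed line is the median of all 13120 genes tested. Filled points are *Bgn*, *Aspn*, *Lum* and *Vcan* in WT MI against WT Sham, *Aspn* and *Fmod* in *Card9* KO MI against WT MI, and these 5 genes in *Card9* KO MI against WT Sham.

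The second comparison set the pair labelled *Card9* KO MI against WT MI, the contrast meant to show what *Card9* loss changed in the infarct. Fibromodulin and asporin were called higher in the labelled knockout libraries, and no member was called lower. The remaining 7 tested members, decorin and versican among them, did not pass the test, although biglycan, osteoglycin and versican were higher in both libraries. The 2 calls among 9 members compare with 0.816% of all genes called higher and 0.587% called lower, and at an unadjusted p below 0.05 limma gave 4 members higher and 0 lower. *Fmod* reached the filter on low values through the pair labelled *Card9* KO MI only, so its place among the tested genes depended on its level there; without a filter it still passed (adjusted p = 0.0251) and *Aspn* did not (adjusted p = 0.0789). Without overlap between libraries, 5 of 9 members were higher and 0 lower, against 30.8% and 21.9% of all genes. The screen gave 1 member higher, *Aspn*, and 0 lower, against 0.728% and 0.332% of its genes.

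Fibromodulin stood at 0.34 and 0.35 FPKM in WT MI and at 4.45 and 4.8 in the pair labelled *Card9* KO MI, an estimated 59.5 and 61.8 fragments. The groups were far apart, with the labelled knockout libraries above WT Sham as well, and the mean was 13.4-fold that of WT MI. The log2 fold change of FPKM + 1 was 2.06 (SE 0.20, 95% interval 1.59 to 2.53, adjusted p = 0.0088). Because WT MI was so low, this size depends on the FPKM added before the logarithm: with 0.1 added it was 3.41 and with 5 added 0.85, and it passed the test both times.

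Asporin stood at 25.79 and 31.57 FPKM in WT MI and at 70.18 and 82.48 in the pair labelled *Card9* KO MI. The lowest labelled knockout value was more than that of either WT MI library by a wide margin, and the mean was 2.66-fold higher (log2 fold change 1.38, SE 0.16, 95% interval 1.01 to 1.76, adjusted p = 0.0158). Both calls needed all 4 infarct libraries. When any 1 of them was left out, neither gene passed: *Fmod* kept a log2 fold change of 2.02 to 2.11 with an adjusted p of 0.0584 to 0.0703, and *Aspn* one of 1.24 to 1.52 with an adjusted p of 0.0629 to 0.154. In those 4 fits the calls over all genes fell from 107 to between 3 and 11 higher and from 77 to between 5 and 9 lower.

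Biglycan stood at 882.24 and 874.95 FPKM in the pair labelled *Card9* KO MI, both above the 594.37 and 660.45 of WT MI. Its mean was 1.40-fold higher, and the log2 fold change of 0.49 (95% interval 0.16 to 0.81) did not pass after adjustment (adjusted p = 0.123). Osteoglycin reached an FPKM of 73.37 and 79.56, above both WT MI libraries at 35.5 and 56.56. Its mean was 1.66-fold higher (log2 fold change 0.76, 95% interval 0.31 to 1.20, adjusted p = 0.0982).

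Versican stood at 15.51 and 13.89 FPKM against 13.18 and 13.31. The groups lay close but did not overlap, and the log2 fold change was 0.14 (95% interval -0.17 to 0.45, adjusted p = 0.613). Lumican, at 56.75 and 64.13 against 38.84 and 57.82, overlapped between the groups (log2 fold change 0.34, 95% interval -0.07 to 0.75, adjusted p = 0.329). Decorin, at 297.49 and 309.52 against 296.75 and 385.71, also overlapped (log2 fold change -0.16, 95% interval -0.45 to 0.14, adjusted p = 0.537).

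Prolargin, at 23.23 and 30.47 against 21.12 and 27.18, and podocan, at 8.79 and 8.15 against 8.44 and 10.62, overlapped as well. Their log2 fold changes were 0.15 (95% interval -0.26 to 0.55) and -0.15 (95% interval -0.54 to 0.25). Aggrecan had an FPKM of 0.12 and 0.26, an estimated 3.8 and 7.9 fragments, in the pair labelled *Card9* KO MI, against 0 and 0.07 for WT MI; it failed the filter on low values, and at these counts no fold is given. The median log2 fold change of the 9 tested members was 0.34, against 0.04 over all genes tested.

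Against WT Sham, *Bgn*, *Aspn*, *Vcan*, *Fmod* and *Lum* were called higher in the pair labelled *Card9* KO MI, 5 of 9, and 0 members were called lower by limma (5 higher and 0 lower at an unadjusted p below 0.05); 34.8% of all genes were called higher and 14.3% lower (4569 and 1875, or 2841 and 3409 under quantile normalization). Without overlap, 7 of 9 members were higher and 1 lower, against 51.6% and 24.5% of all genes, and the screen gave 4 higher and 0 lower, against 8.56% and 1.94% of its genes. Mean FPKM was 5.10-fold higher for *Aspn* (log2 fold change 2.28, adjusted p = 4.05e-05) and 4.50-fold higher for *Bgn* (2.18, adjusted p = 2.88e-05). *Vcan* was 4.92-fold higher (log2 fold change 1.98, adjusted p = 3.21e-05) and *Lum* 2.55-fold higher (1.31, adjusted p = 0.00069). *Fmod*, 6.85-fold higher (log2 fold change 1.75, adjusted p = 0.000337), was the only one of the 5 whose WT MI mean lay below that of WT Sham. Here, too, *Fmod* was tested only because of its level in the pair labelled *Card9* KO MI. Its WT Sham values stand for an estimated 6.5 fragments per library, and without a filter limma gave an adjusted p of 0.000865.

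Of the 4 other tested members, *Ogn* was higher in both libraries than in WT Sham at a log2 fold change of 0.42 (adjusted p = 0.104). It passed where 1 or both WT MI libraries were left out of the fit, which changed the shared spread and not this value. With 1 of the compared libraries left out it was 0.36 to 0.48. With all 6 libraries *Podn* stood at 0.27, *Dcn* at -0.08 and *Prelp* at -0.31, none past the threshold, with *Podn* at -0.10 under quantile normalization. *Prelp* passed as lower under upper-quartile scaling (log2 fold change -0.56, adjusted p = 0.036) and quantile normalization (-0.51, adjusted p = 0.0472). This comparison shares its libraries with both others, so its values are given beside theirs and not as further evidence. The median over the 9 tested members was 1.31, against 0.24 over all genes.

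Several members sit in clusters on the mm9 genome, and their values are given by block. Differences between neighbours were not tested. *Fmod* (NCBI gene 14264; chr1:135933831-135944854, plus strand) lies 115.8 kb from *Prelp* (chr1:135806881-135817991, minus strand); *Fmod* passed between the infarcted groups and *Prelp* did not. *Aspn* (NCBI gene 66695; chr13:49639812-49662926) and *Ogn* (chr13:49703440-49719869) lie 40.5 kb apart on the plus strand with *Omd* between them and *Ecm2* 11.7 kb before *Aspn*. In this block all 4 log2 fold changes between the infarcted groups were above 0, at 0.75 for *Ecm2* (adjusted p = 0.0939), 1.38 for *Aspn*, 0.28 for *Omd* (adjusted p = 0.262) and 0.76 for *Ogn* (adjusted p = 0.0982), and only that of *Aspn* passed. Of all genes tested, 56.3% were above 0 in that comparison. *Dcn* (chr10:96942245-96980777) and *Lum* (chr10:97028135-97035337) are 47.4 kb apart on the plus strand, and neither passed in that comparison.

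All 4 genes of the chromosome 13 block lie inside *Cenpp*, a centromere protein gene on the opposite strand, whose FPKM was 1.59 to 5.14. Since the sources used here do not say whether counting used strand, reads of *Cenpp* and of these genes cannot be fully told apart. The part of *Cenpp* reads in the values of these 4 genes was not tested. *Prelp* overlaps *Gm15851*, and *Vcan* overlaps *Gm16318* and *Gm4117*, all on the opposite strand and without a value in these files. *Bgn* (chrX:70728941-70741272), *Podn* (chr4:107687396-107704942), *Vcan* (chr13:89794915-89882117) and *Acan* (chr7:86198369-86259985) lie apart from the other members or on other chromosomes.

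The promoters of *Fmod* and *Aspn*, the members called between the infarcted groups, are shown with those of their neighbours *Prelp* and *Ogn*, which were not called, so that the pairs can be read side by side. Each runs 5′ to 3′ on the gene's strand from 250 bases before to 50 after the RefSeq start, from the GRCm38.p6 assembly, whose coordinates differ from mm9. Capitals mark matches, on either strand, to the core promoter element TATAAA, the TEAD factor motif CATTCC and the SMAD factor motif CAGAC; the AP-1 motif TGACTCA was searched too.
*Fmod* (chr1:134037004-134037303, plus strand): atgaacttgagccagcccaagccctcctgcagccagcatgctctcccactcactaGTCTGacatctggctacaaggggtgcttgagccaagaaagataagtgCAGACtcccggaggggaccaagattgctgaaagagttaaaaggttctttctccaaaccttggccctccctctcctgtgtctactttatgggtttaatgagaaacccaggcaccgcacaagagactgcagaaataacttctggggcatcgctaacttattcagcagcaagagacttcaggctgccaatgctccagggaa
*Prelp* (chr1:133921352-133921651, minus strand): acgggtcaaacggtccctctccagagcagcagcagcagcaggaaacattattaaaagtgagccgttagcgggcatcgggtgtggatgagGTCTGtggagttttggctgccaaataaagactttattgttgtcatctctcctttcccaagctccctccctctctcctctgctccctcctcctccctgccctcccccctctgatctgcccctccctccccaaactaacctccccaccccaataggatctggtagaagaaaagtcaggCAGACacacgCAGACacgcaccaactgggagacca
*Aspn* (chr13:49544193-49544492, plus strand): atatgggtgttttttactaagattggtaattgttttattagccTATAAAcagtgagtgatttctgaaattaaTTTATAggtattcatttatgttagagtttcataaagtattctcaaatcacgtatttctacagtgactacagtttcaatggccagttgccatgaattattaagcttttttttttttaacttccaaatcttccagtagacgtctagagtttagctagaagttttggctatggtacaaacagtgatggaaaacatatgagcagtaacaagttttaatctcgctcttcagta
*Ogn* (chr13:49607765-49608064, plus strand): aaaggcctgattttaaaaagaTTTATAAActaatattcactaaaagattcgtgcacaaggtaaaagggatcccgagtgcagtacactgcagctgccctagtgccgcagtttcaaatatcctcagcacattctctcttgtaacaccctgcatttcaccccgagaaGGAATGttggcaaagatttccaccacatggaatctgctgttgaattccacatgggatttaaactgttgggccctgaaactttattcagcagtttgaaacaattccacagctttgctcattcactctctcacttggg

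The *Fmod* promoter held CAGAC once on each strand, at -148 and -195 from the start, and the *Prelp* promoter held it at 15, 25 and -161. The *Aspn* promoter held TATAAA at -207 and, on the other strand, at -178, and the *Ogn* promoter held overlapping TATAAA matches at -227 and -229 and CATTCC on the other strand at -86. The 300 bases were 31% G and C for *Aspn* and 42.3% for *Ogn*, and 51% for *Fmod* and 55.3% for *Prelp*. Among 32851 promoters of the same length, 49.6% held CAGAC, 14.7% CATTCC, 13.6% TATAAA and 5.2% TGACTCA. *Fmod* and *Prelp* thus shared CAGAC, and *Aspn* and *Ogn* shared TATAAA, while CATTCC was found in *Ogn* and not in *Aspn*. The TATAAA matches lay between -229 and -178 from the start, and whether any match acts as a promoter element was not tested.

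Further lists held other proteoglycan core proteins, hyaluronan genes, chain synthesis, proteases and propeptide processing, and receptors and growth factors that SLRPs bind. Of their genes, many were called higher with infarction in wild-type hearts and few were called between the infarcted groups. Of 82 tested genes on these lists, 49 were called higher and 3 lower in WT MI against WT Sham (median log2 fold change 0.71), beside the 27.7% and 9.39% of all genes. Under quantile normalization the counts were 36 and 4 (median 0.43), beside 2288 and 2416 over all genes. Of the same 82, limma called 3 higher and 2 lower in the pair labelled *Card9* KO MI against WT MI (16 and 7 at an unadjusted p below 0.05), and the screen called 1 and 2. Of all genes 0.816% were called higher and 0.587% lower there. For chondroitin and dermatan sulfate chains, 9 of 13 tested genes rose and 0 fell in WT MI against WT Sham (median log2 fold change 0.99), and 0 of 13 passed between the infarcted groups (2 at an unadjusted p below 0.05; median 0.20). Of these, the largest differences there were 0.49 for *Chst15*, a sulfotransferase (adjusted p = 0.209), 0.43 for *Dse*, the dermatan sulfate epimerase (adjusted p = 0.289), and 0.42 for the chain polymerase *Chsy1* (adjusted p = 0.211). For sugar and sulfate donors 5 of 7 rose with infarction (median 0.72) and 0 of 7 passed between the infarcted groups (1 unadjusted; median 0.22), with 0.48 for *Papss1* (adjusted p = 0.123) and 0.27 for *Papss2* (adjusted p = 0.355), which both make the sulfate donor, and 0.42 for the sugar transporter *Slc35d1* (adjusted p = 0.411).

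For keratan sulfate chains, carried by lumican and fibromodulin, 4 of 6 genes rose with infarction (median 0.84) and 0 of 6 passed between the infarcted groups (1 unadjusted, median 0.12). Of all genes tested, 27.7% were called higher and 9.39% lower with infarction (median 0.19), and 0.816% and 0.587% between the infarcted groups (median 0.04). The galactosyltransferase *B4galt4* stood at -0.52 (adjusted p = 0.139), the sulfotransferase *Chst2* at 0.38 (adjusted p = 0.347) and *B3gnt7* at 0.32 (adjusted p = 0.512). The linker that joins chains to core proteins had fewer calls: 1 of 6 genes rose with infarction (median 0.16) and 0 of 6 passed between the infarcted groups (1 unadjusted; median 0.08), with 0.63 for the xylosyltransferase *Xylt2* (adjusted p = 0.188), 0.26 for *B4galt7* (adjusted p = 0.598) and 0.17 for *B3galt6* (adjusted p = 0.805). Of the genes for ADAMTS proteases that cut versican and aggrecan and for propeptide processing, 5 of 8 rose with infarction (median 0.94) and 0 of 8 passed between the infarcted groups (2 unadjusted; median 0.22). There *Pcolce* stood at 0.45 (adjusted p = 0.0972), *Adamts8* at 0.45 (adjusted p = 0.348) and *Bmp1*, which cleaves the biglycan propeptide, at 0.33 (adjusted p = 0.167). Under quantile normalization 3 keratan sulfate, 1 linker and 4 protease and propeptide genes were called higher with infarction, and 1 linker gene lower.

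Of the hyaluronan genes 7 of 9 were not called in the labelled knockout comparison. With infarction 6 of 9 rose and 0 fell (median 0.59), beside 27.7% and 9.39% of all genes. Under quantile normalization these counts were 4 and 0. Between the infarcted groups 1 rose and 1 fell (median 0.06), beside 0.816% and 0.587% of all genes, and both calls depended on the processing. *Cemip*, which degrades hyaluronan, stood at 0.04 and 0 FPKM in WT Sham, 0.27 and 0.21 for WT MI, and 2.32 and 2.89 in the pair labelled *Card9* KO MI. Both were above every other library. They were also the only ones to reach the filter on low values, so that *Cemip* was tested only because of its level there. Its log2 fold change against WT MI was 1.54 (adjusted p = 0.0337), and it did not pass without a filter (adjusted p = 0.0549) or with 0.1 FPKM added (adjusted p = 0.120). *Lyve1*, the hyaluronan receptor of lymphatic vessels and some resident macrophages, stood at 12.57 and 14.38 FPKM in WT MI and at 4.7 and 6.84 in the pair labelled *Card9* KO MI, and fell by 1.11 on the log2 scale (adjusted p = 0.0367), a call that was also lost without a filter (adjusted p = 0.102) and with 0.1 FPKM added (adjusted p = 0.0530). *Hmmr* stood at 0.54 (adjusted p = 0.114).

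Among other proteoglycan core proteins, 8 of 16 rose and 1 fell with infarction (median 0.50), beside 27.7% and 9.39% of all genes. Under quantile normalization these counts were 5 and 1. Between the infarcted groups 0 rose and 1 fell (median 0.11), beside 0.816% and 0.587% of all genes. The one that fell was *Prg4*, lubricin, at an FPKM of 115.33 and 53.19 for WT MI and at 21.77 and 19.01 in the pair labelled *Card9* KO MI (log2 fold change of -1.90, adjusted p = 0.038), while the WT Sham libraries had 8.19 and 9.16. Glypican 6 (*Gpc6*) stood at 0.69 (adjusted p = 0.0776) and agrin (*Agrn*) at 0.61 (adjusted p = 0.0939). Of the other SLRPs only *Ecm2*, *Omd* and *Tsku* were tested; 1 rose and 1 fell with infarction, none passed between the infarcted groups (1 unadjusted), and *Tsku* stood at -0.18 (adjusted p = 0.647).

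Of the receptors and growth factors that SLRPs bind, 10 of 14 rose and 1 fell with infarction (median 0.76), beside 27.7% and 9.39% of all genes. Under quantile normalization these counts were 7 and 1. Between the infarcted groups 2 rose and 0 fell (median 0.20), beside 0.816% and 0.587% of all genes. *Tgfb3*, a TGF-β ligand, stood at 12.27 and 13.58 FPKM in WT MI and at 34.45 and 31.58 in the pair labelled *Card9* KO MI. The groups did not overlap (log2 fold change 1.29, adjusted p = 0.0115). *Wisp1*, a matricellular protein now named *Ccn4* that binds decorin and biglycan, stood at 6.53 and 5.56 FPKM in WT MI and at 13.23 and 12.97 in the pair labelled *Card9* KO MI, again without overlap (log2 fold change 1.00, adjusted p = 0.0388). *Bmp4* stood at 0.69 (adjusted p = 0.259). Like those of *Fmod* and *Aspn*, the calls of *Cemip*, *Lyve1*, *Tgfb3* and *Wisp1* were lost when any 1 infarct library was left out (adjusted p = 0.0584 to 0.198), and that of *Prg4* was lost in 3 of these 4 fits (adjusted p = 0.0703 to 0.147) and held without WT MI replicate 2 (adjusted p = 0.0177). Leaving out either WT Sham library ended the calls of *Cemip*, *Lyve1*, *Prg4* and *Wisp1* (adjusted p = 0.0523 to 0.0628).

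**Figure D4:**
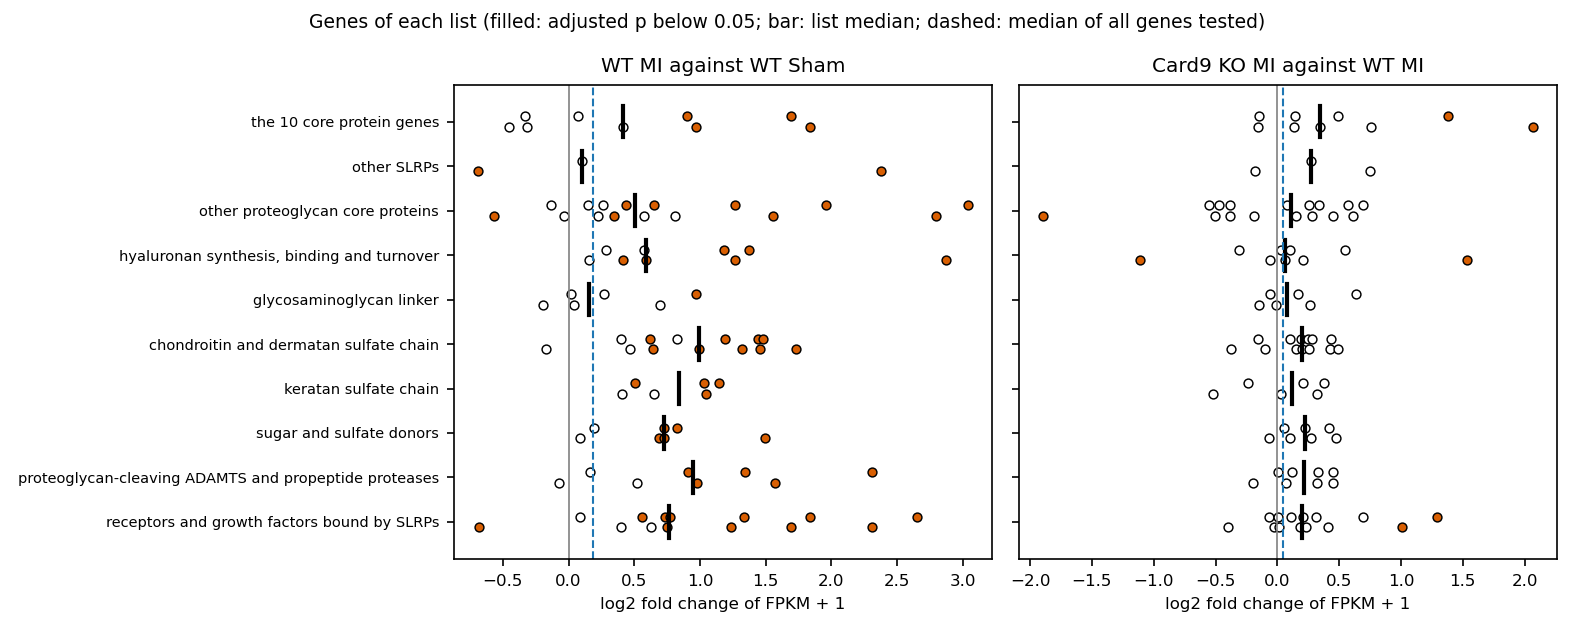
log2 fold change of FPKM + 1 for every tested gene of each list (points; filled where the adjusted p was below 0.05), with the list median (bar) and the median of all genes tested (dashed line). In WT MI against WT Sham most lists hold many filled points, for example 9 of 13 chondroitin and dermatan sulfate genes; in *Card9* KO MI against WT MI the filled points are *Fmod*, *Aspn*, *Cemip*, *Tgfb3* and *Wisp1* on the right and *Prg4* and *Lyve1* on the left.

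Markers of activated fibroblasts were followed in the same comparisons. All 7 on the list rose in WT MI against WT Sham, beside 27.7% of all genes called higher and 9.39% lower. In the pair labelled *Card9* KO MI against WT MI 4 of 7 rose: *Postn*, *Cthrc1*, *Acta2* and *Wisp1*. Of all genes 0.816% were called higher and 0.587% lower there. Their summed FPKM was 63.43 to 73.95 for WT Sham, 402.33 to 450.28 for WT MI and 1055 to 1087 in the pair labelled *Card9* KO MI, with none at 0. With WT MI replicate 2 left out 1 of the 4 calls remained (*Cthrc1*), with any other infarct library left out 0, and with either WT Sham library left out 3. The count was 0 without a filter, 1 with 0.1 FPKM added (*Postn*), 2 without the eBayes trend, 2 with the replicate number as a block, and 4 under the other scalings and with 5 FPKM added. The 10 general fibroblast markers did not move together. In WT MI against WT Sham 5 were called higher and 1, *Gsn*, lower. In *Card9* KO MI against WT Sham 6 were called higher and 3 lower, beside 34.8% and 14.3% of all genes. Between the infarcted groups *Gsn* and *Dpep1* fell and 0 of 10 rose (3 higher and 3 lower at an unadjusted p below 0.05), and neither call held when any 1 infarct library was left out. Their summed FPKM was 562.53 to 570.31 for WT Sham, 481.31 to 481.45 for WT MI and 410.68 to 440.98 in the pair labelled *Card9* KO MI, with none at 0. That order came from *Gsn*, gelsolin, the most abundant of the list, and without it the other 9 summed to 150.45 and 136.5, then 214.13 and 226.39, then 244.81 and 255.63, in the opposite order. The activated markers kept their order without *Postn*, their most abundant gene, at 38.79 and 57.1, then 218.59 and 209.39, then 461.11 and 427.7. The part of either list in the changes of *Fmod*, *Aspn* and *Bgn* was not tested.

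Cartilage markers were low. Of 10, *Col9a1* and *Snorc* were not listed in any library, and 3 were high enough to be tested. Between the infarcted groups only *Sox9*, a chondrogenic transcription factor that is also active in healing fibroblasts, passed. It was called higher, beside 0.816% of all genes called higher and 0.587% lower. The call was lost when any 1 infarct library was left out, at a log2 fold change of 1.07 to 1.17. It was also lost without a filter (adjusted p = 0.0914), with 0.1 FPKM added (adjusted p = 0.0562) and with the replicate number as a block (adjusted p = 0.0656). The summed FPKM of this list was 2.78 to 3.05 for WT Sham, 4.03 to 6.21 for WT MI and 13.25 to 13.75 in the pair labelled *Card9* KO MI. Its defining collagen *Col2a1* had at most 0.39 in any library. Whether it had a part in the *Fmod* difference was not tested.

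Of the remaining lists, the 10 macrophage and monocyte markers summed to 61.23 to 66.4 for WT Sham, 333.21 to 406.67 for WT MI and 481.45 to 636.68 in the pair labelled *Card9* KO MI, where 0 of 10 passed against WT MI (5 unadjusted, 4 of them higher). The neutrophil list, without the unlisted *Ly6g*, summed to 5.4 to 7.51, 88.76 to 204.92 and 43.78 to 55.78 in the same order, and 0 of 5 tested passed between the infarcted groups by limma (2 unadjusted), while the screen called *S100a8* and *S100a9* lower. Cardiomyocyte markers summed to 36187 to 37931, 21259 to 21590 and 16857 to 18953. Of these, 5 of 7 fell with infarction and 0 of 7 passed between the infarcted groups (5 lower unadjusted). Of all genes, 27.7% were called higher and 9.39% lower with infarction, and 0.816% and 0.587% between the infarcted groups. Endothelial (6), smooth muscle and pericyte (6), mesothelial (2), adipocyte (2) and Schwann cell (1) markers that were tested held 0 limma calls in that comparison (4 higher and 2 lower unadjusted; the screen called *Car3* lower), and their part in any result was not tested.

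**Figure D5:**
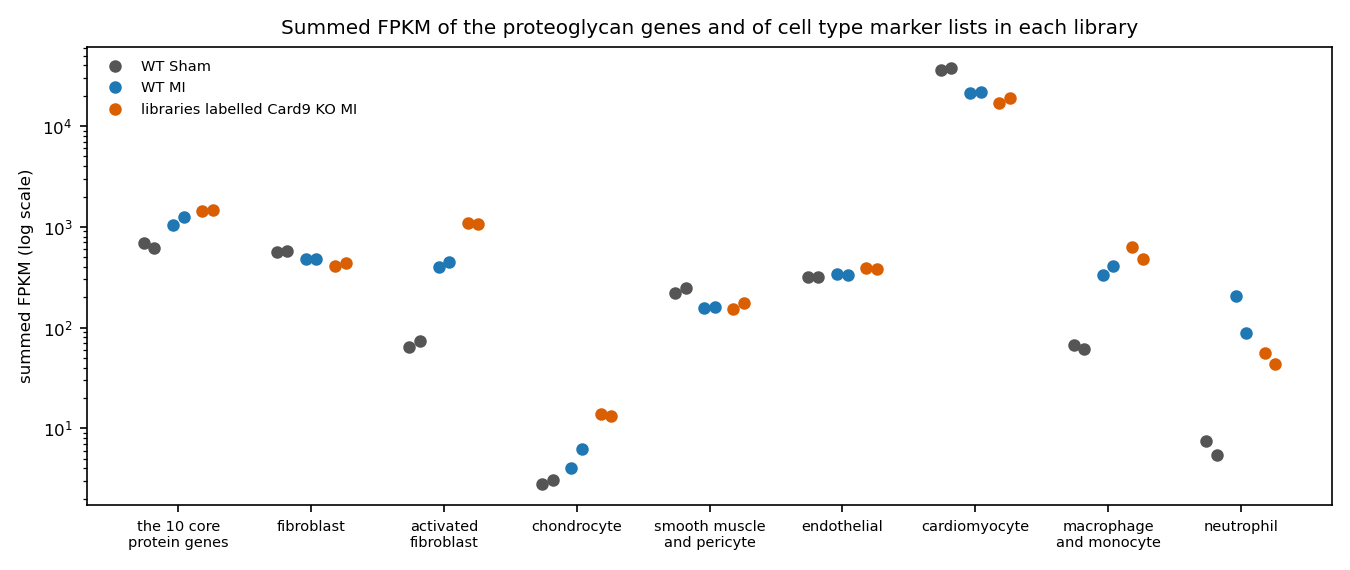
Summed FPKM (log scale) of the 10 core protein genes and of the marker lists of 8 cell types in each library (points, 2 per group). The sums of the core protein genes and of the activated fibroblast markers are highest in the pair labelled *Card9* KO MI, at 1432 to 1468 and 1055 to 1087. So are those of the macrophage and monocyte (481.45 to 636.68), endothelial (382.61 to 386.74) and chondrocyte markers (13.25 to 13.75). That of the cardiomyocyte markers is lowest there. The fibroblast sum is also lowest there because of *Gsn*, and without it that sum is highest there, at 244.81 and 255.63.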

How the data were processed

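RNA below the ligature was enriched for mRNA with a TruSeq kit and sequenced on a HiSeq instrument. The authors mapped filtered reads to mm9 with BWA and Bowtie2 and deposited FPKM values, to 2 decimals, for NCBI gene numbers; the annotation and strand setting are not given in the sources used here. FPKM is relative to transcript length and library total. Read counts were not analysed here; depth was estimated from the spacing of low FPKM values, and 72.4% to 75.3% of these lay within 0.15 of a whole fragment, too few to rebuild counts.

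Samples were grouped by their labels. Unlisted genes were set to 0, symbols were matched through a RefSeq table for 17390 of 17441 gene numbers, and positions were taken from the mm9 GENCODE annotation. limma 3.58.1 (R 4.3.3; lmFit, eBayes with trend) was run on log2(FPKM + 1) for 13120 genes that reached an FPKM of 1 in 2 or more libraries, with 3 groups in one fit, Benjamini-Hochberg adjustment over all genes and calls at an adjusted p below 0.05. Scripts were tested on simulated data. The study's own screen (fold change and diverge probability) was recomputed in Python 3.11.15 as an alternative. The members and gene lists were chosen with earlier results of these data known. Named were all members, *Card9*, and from each pathway list the genes called between the infarcted groups, filled up to 3 by the largest log2 fold change; fibroblast and cartilage markers named beside their counts were picked after their values were seen. Alternatives also covered a pseudocount of 0.1 or 5 FPKM, no filter, a mean FPKM of at least 5, 3 other scalings, only the 2 groups compared, eBayes without trend, a replicate block, genes with a value in each of the 6 libraries, a 2-fold minimum, and each library left out in turn.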

Additional observations from a re-analysis of the deposited data

How the results depend on the processing

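The 4 members called higher in WT MI against WT Sham stayed 4 when each library was left out and 3 under the study's screen, and the 5 in *Card9* KO MI against WT Sham ranged from 5 to 6 and were 4 under the screen. Members called lower went from 0 to 1 (*Prelp*) in WT MI against WT Sham under upper-quartile scaling, quantile normalization and scaling without the 100 most abundant genes, to between 0 and 1 (*Ogn*) with a library left out, and from 0 to 1 (*Prelp*) in *Card9* KO MI against WT Sham under upper-quartile scaling and quantile normalization. The 2 calls of *Card9* KO MI against WT MI became 1 without a filter (*Fmod*), without the eBayes trend (*Fmod*), with a mean FPKM of at least 5, which drops *Fmod*, and under the screen (*Aspn*), and ranged from 0 to 2 with a library left out; a fit with 1 library in a group assumes that it varies like the other groups.

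Over all genes, 107 higher and 77 lower calls of *Card9* KO MI against WT MI became 47 and 33 with 0.1 FPKM added, 200 higher with 5 added, 7 and 5 without a filter, 136 lower with a mean FPKM of at least 5, 69 and 32 in a fit of the 2 groups, 40 and 18 without the trend, 163 and 134 among genes listed in all libraries, 67 and 38 with a 2-fold minimum, and 3 to 63 and 5 to 33 with a library left out. The 3637 higher and 1232 lower calls of WT MI against WT Sham became 2288 and 2416 under quantile normalization, 2202 lower under upper-quartile scaling, 1924 and 264 with a 2-fold minimum, 1024 and 153 under the screen, and 2256 to 3487 and 627 to 1193 with a library left out. For *Card9* KO MI against WT Sham, 4569 and 1875 became 2841 and 3409, 2921 lower, 2628 and 569, and 1457 and 331 under the same first 4 settings, in that order. The cause of these moves was not tested beyond what each setting removes.

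Replicate numbers did not pair the libraries (correlation of deviations -0.00828 to 0.0204), and the fit with the replicate number as a block gave 45 higher and 26 lower calls of *Card9* KO MI against WT MI, with 4, 2 and 5 members called as before; it ended the calls of *Cemip*, *Lyve1*, *Prg4* and *Wisp1* (adjusted p = 0.0562 to 0.0692), and no filter ended these and that of *Tgfb3* (adjusted p = 0.0549 to 0.112). Signs turned only for differences that passed no test. *Dcn* in WT MI against WT Sham was -0.15 under upper-quartile scaling, -0.027 under quantile normalization and -0.078 without the 100 most abundant genes, and -0.12 to 0.26 with a library left out. *Podn* in *Card9* KO MI against WT Sham was -0.10 under quantile normalization. In *Card9* KO MI against WT MI, leaving out a library gave -0.35 to 0.032 for *Dcn*, -0.043 to 0.33 for *Prelp*, -0.30 to 0.0038 for *Podn*, -0.031 to 0.56 for *B4galt7* and -0.083 to 0.41 for *B3galt6*. Estimated depth limits *Acan*, at 0 to 7.9 fragments per library, and *Fmod* in WT MI, at 4.3. The sums without the most abundant marker and the list counts under quantile normalization were chosen after seeing the data.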
